A study of Mus musculus with 6 samples.

Results

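The genes described here are 10 members of the BCL2 family, the proteins that set the threshold for mitochondrial apoptosis, in tumours grown from STS26T cells. They were taken as the rows of the deposited expression table with exactly the symbols BMF, BCL2, BCL2L1, MCL1, BAX, BAK1, BBC3, PMAIP1, BCL2L11 and BID. All 10 were found among the 23284 genes listed, and all 10 were among the 12586 genes tested. BMF was chosen by its lower FPKM in the anti-ENG tumours of this same comparison, and the other 9 by family membership, so the BMF difference is given as a description with no test.

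STS26T is an established human line from a malignant peripheral nerve sheath tumour. The tumours grew under the skin of athymic nude mice, which lack mature T cells, so every group shares that host. In the IgG control group, 3 tumours came from mice given an IgG isotype control, and in the anti-ENG group, 3 came from mice given TRC105 and M1043, antibodies against human and mouse endoglin. Both arms received 10 mg/kg into the peritoneum 2 times a week for 3 weeks. Endoglin (ENG) is an accessory receptor that binds TGF-beta family ligands together with their signalling receptors, and the comparison asks how tumour RNA differs once it is blocked in tumour and host. All tumours derive from a single cell line. In the sample codes, IgG control 2 and 3 share a number and differ by the letters L and R, as do anti-ENG 1 and 2. Whether such a pair grew in 1 mouse is not given in the labels, so n counts tumours and may exceed the number of mice. The p-values measure the spread between these samples only.

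In the BCL2 family, 3 kinds of protein act against each other on the outer mitochondrial membrane. BAX and BAK (gene BAK1) are the effectors that open the membrane and let cytochrome c out. BCL2, BCL-XL (gene BCL2L1) and MCL1 hold the effectors in check, and the BH3-only proteins BMF, PUMA (BBC3), NOXA (PMAIP1), BIM (BCL2L11) and BID lift that check or push the effectors directly. BMF is held on myosin V motors by the dynein light chain DYNLL2 and is known for its release when cells lose attachment.

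Levels are in FPKM, which scale fragments by transcript length and by the size of the library, so they can be compared between genes. Libraries differed in relative depth by up to 1.46 times, and absolute depth is unknown. IgG control 1 and anti-ENG 1 differed most on principal component 1 (44.6% of variance). The tumours carried little RNA of the defining Schwann cell markers: SOX10 was at or below 0.188 FPKM and S100B at or below 0.104 FPKM in every tumour, while the intermediate filament genes NES and VIM lay between 23.2 and 64.1 FPKM and between 1386 and 2182 FPKM. Of 8 immune cell markers, CD68, a lysosomal protein gene, lay between 58.4 and 115 FPKM, and the other 7 were at or below 2.81 FPKM, with PTPRC at or below 1.13 FPKM. All 6 endothelial markers were at or below 2.54 FPKM, the level of TEK in its highest tumour, with CDH5 at or below 0.341 FPKM. All 5 melanocyte markers were at or below 3.98 FPKM, the level of MITF in its highest tumour, with TYR at or below 0.0487 FPKM. Reads were aligned to the human genome, so host RNA enters only where mouse reads align to it.

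The order of the members was nearly the same in all tumours. MCL1 had the highest level in 6 of 6 tumours, with a mean of 136 FPKM, higher than that of 96.4% of the genes tested. BAX, BID and PMAIP1 followed at means of 65.1, 57.2 and 54.8 FPKM, and their ranges over the tumours overlapped, so these 3 were not separated by the spread between tumours. BCL2L1 was the fifth in every tumour at a mean of 29.5 FPKM, and BAK1 the sixth in every tumour at 19.0 FPKM. BBC3 at 7.03 FPKM and BCL2L11 at 4.98 FPKM overlapped in range. BMF was the ninth in every tumour at 3.18 FPKM, and BCL2 the last in every tumour at 1.22 FPKM. The gene that names the family thus had the lowest level of the 10, under that of all but 2.84% of the genes tested.

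**Figure D1:**
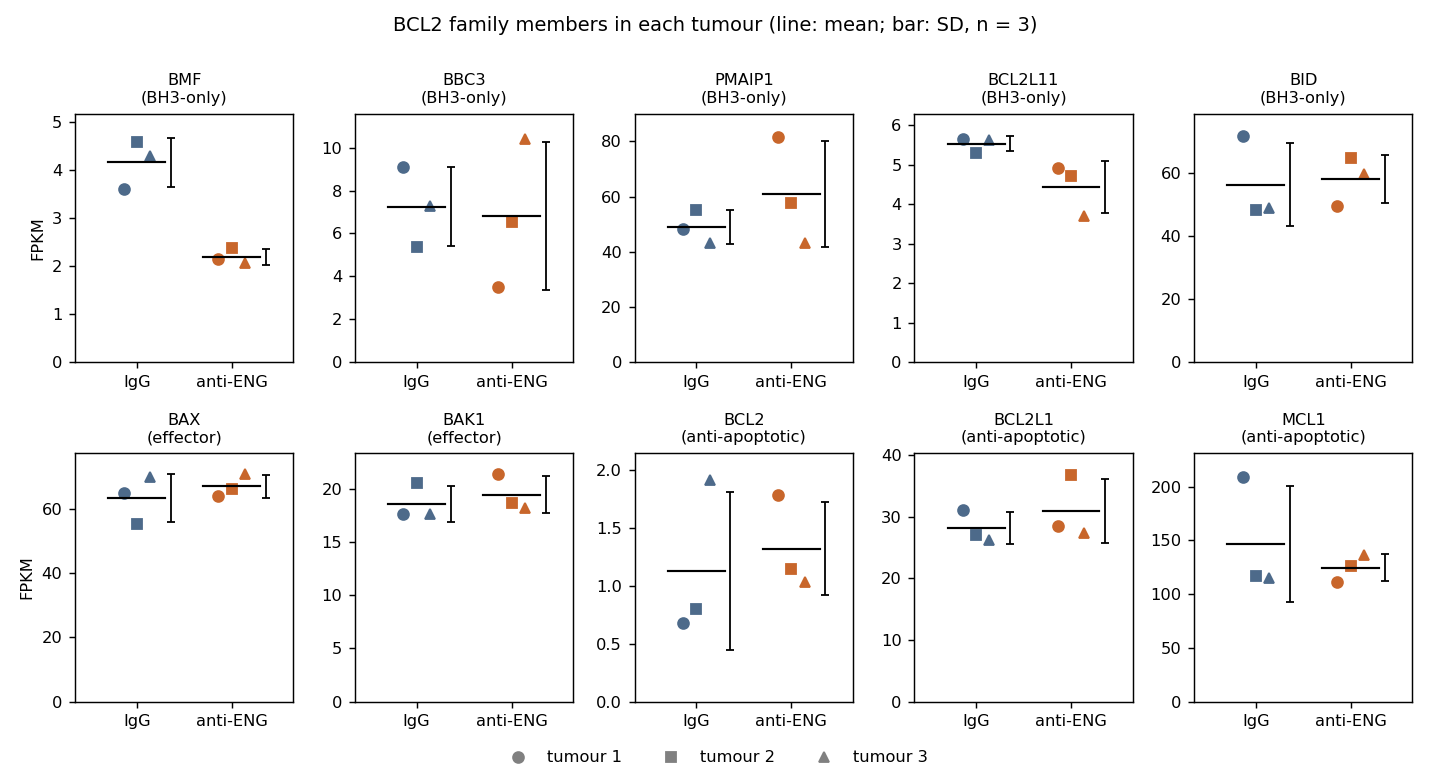
FPKM of each member in each of the 6 tumours, with 1 panel per gene and a y axis that starts at 0; horizontal lines are group means, vertical bars the SD (n = 3), and marker shapes the replicate number. BMF lies between 3.60 and 4.58 FPKM under IgG and between 2.06 and 2.38 under anti-ENG, while the arms overlap for 8 of the 10 genes.

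The BMF level was 3.60 FPKM in IgG control 1, 4.58 in IgG control 2 and 4.30 in IgG control 3, against 2.15, 2.38 and 2.06 FPKM in anti-ENG 1, 2 and 3. Values of other genes follow in the same order of tumours. The lowest IgG tumour lay above the highest anti-ENG tumour. The means were 4.16 ± 0.504 and 2.20 ± 0.166 FPKM (SD, n = 3 each), so the anti-ENG mean was 0.528 times the IgG mean. On the log2(FPKM + 1) scale, where changes of low genes come out too small, the difference was -0.69 (SE 0.14). It stayed between -0.77 and -0.63 when any 1 tumour was left out, and between -0.78 and -0.61 over the 4 other scalings. The choice of BMF on these same tumours favours such narrow ranges, so they are no separate support. In these bulk samples, fewer cells with BMF RNA and less BMF RNA per cell cannot be told apart. Genes listed as markers of fibroblasts had estimates of the same sign. Of these, 6 of 6 had log2 fold changes below 0, while 51.2% of all genes tested were above 0. None passed the adjusted threshold in limma. The arms did not overlap in 1 of 6, PDGFRB, with the anti-ENG tumours lower, beside 6.75% of all genes tested. PDGFRB, named after its values were seen, had a log2 fold change of -0.94, and its arms stayed apart under each of the 4 other scalings. The summed level of the 6 genes was 1389, 1038 and 708 FPKM under IgG and 313, 686 and 821 FPKM under anti-ENG. The highest sum was in IgG control 1 and the lowest in anti-ENG 1, and the list median of -0.89 was -0.37 without both. Whether these 6 genes were read from RNA of tumour cells or from mouse reads that align to the human genome was not tested. Their part in the BMF difference was not tested either.

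No gene of the table passed an adjusted p under 0.05 in limma (percent called 0), nor did any of the other 9 members, whose adjusted p-values ran from 0.539 to 0.919. At an unadjusted p under 0.05, limma gave 1154 genes, 9.17% of those tested, and 0 of these 9 members. The values of the arms did not overlap in 17.3% of all genes tested, 6.75% with the anti-ENG tumours lower and 10.6% with them higher. Among the 9 members other than BMF this was so for 1, BCL2L11. Of all 10 members, 6 had log2 fold changes above 0 and 4 below, with a median of 0.058, beside a median of 0.0065 and a share of 51.2% above 0 over all genes tested. The sum of FPKM over all genes ran from 410786 to 443148 under IgG and from 446100 to 475146 under anti-ENG. Rescaling each tumour to the same sum of FPKM moved the median of all genes to -0.10. The number of members above 0 was then 3 of 10, beside 4160 of all 12586 genes tested. It was 4 of 10 after quantile or cyclic loess normalization, beside 6641 and 6153 genes.

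**Figure D2:**
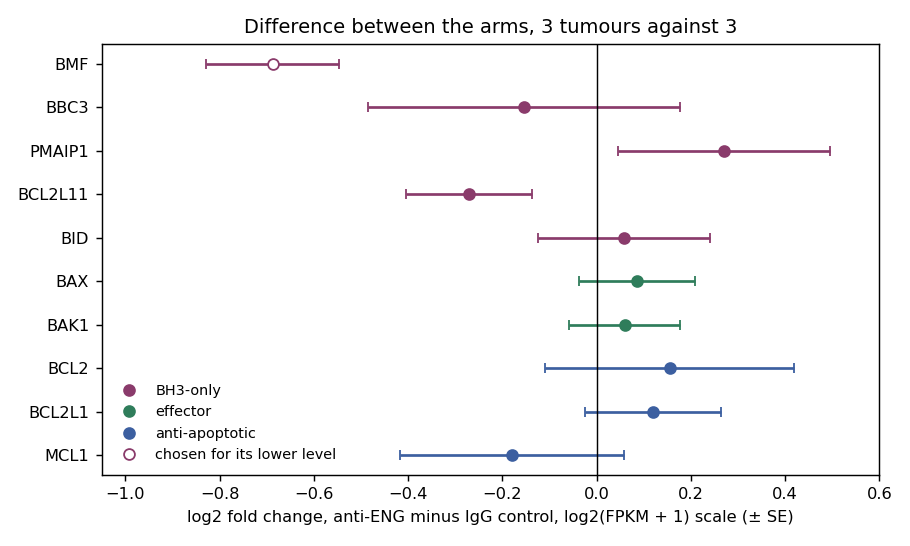
Log2 fold change of each member on the log2(FPKM + 1) scale, anti-ENG minus IgG control, with bars of ± 1 SE from limma and colours for the 3 roles; the open point is BMF, chosen for its lower level. BMF sits at -0.69 and BCL2L11 at -0.27, and the other members lie between -0.18 and 0.27.

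Among the other BH3-only genes, BCL2L11 encodes BIM, which binds all of the anti-apoptotic proteins. It had 5.66, 5.30 and 5.63 FPKM under IgG and 4.90, 4.71 and 3.69 FPKM under anti-ENG. Every anti-ENG tumour lay below every IgG tumour, with anti-ENG 3 the lowest. The log2 fold change was -0.27 (SE 0.13, 95% interval -0.58 to 0.04, limma adjusted p = 0.539), and it was -0.17 without anti-ENG 3. BMF stood at 0.637, 0.864 and 0.765 times the BCL2L11 level in the IgG tumours and at 0.439, 0.506 and 0.558 times that level in the anti-ENG tumours. That ratio was lower in each anti-ENG tumour than in any IgG tumour, a separation that the choice of BMF favours.

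PMAIP1 encodes NOXA, which acts mainly on MCL1. Its level was 48.3, 55.3 and 43.0 FPKM under IgG and 81.4, 57.7 and 43.3 FPKM under anti-ENG. The arms overlapped, and anti-ENG 1 stood far above the other 5 tumours. The log2 fold change of 0.27 (SE 0.22, 95% interval -0.26 to 0.80, limma adjusted p = 0.666) came to 0.04 without anti-ENG 1 and to 0.49 without anti-ENG 3. BBC3 encodes PUMA, which binds all of the anti-apoptotic proteins. It had 9.09, 5.38 and 7.30 FPKM under IgG and 3.52, 6.53 and 10.4 FPKM under anti-ENG, so the anti-ENG arm held both the lowest and the highest tumour. The tumour with the most PMAIP1 RNA, anti-ENG 1, had the least BBC3 RNA. The BBC3 log2 fold change was -0.15 (SE 0.33, 95% interval -0.93 to 0.62, limma adjusted p = 0.868), and 0.19 without anti-ENG 1. Its SD within arms was larger than that of 93.5% of the genes tested.

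BID is activated by caspase 8 and so links death receptors to mitochondria. Its level was 71.6, 48.3 and 49.0 FPKM under IgG and 49.7, 64.6 and 59.7 FPKM under anti-ENG. IgG control 1 was the highest of the 6, and the other IgG tumours were the lowest. The log2 fold change was 0.06 (SE 0.18, 95% interval -0.37 to 0.49, limma adjusted p = 0.919). Without IgG control 1 it was 0.24, and it was below 0 under 3 of the 4 other scalings.

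The effectors had the smallest spans between the lowest and the highest tumour of all 10 members. BAX had 64.9, 55.3 and 69.7 FPKM under IgG and 63.9, 66.1 and 70.8 FPKM under anti-ENG, a span of 1.28 times. BAK1 had 17.6, 20.5 and 17.6 FPKM under IgG and 21.4, 18.6 and 18.2 FPKM under anti-ENG, a span of 1.22 times. The arms overlapped for both genes. The log2 fold change was 0.08 for BAX (SE 0.12, 95% interval -0.20 to 0.37, limma adjusted p = 0.807), and it was below 0 under 3 of the 4 other scalings. For BAK1 it was 0.06 (SE 0.12, 95% interval -0.22 to 0.34, limma adjusted p = 0.858), and it was below 0 with each tumour rescaled to the same sum of FPKM. BAX RNA exceeded BAK1 RNA in each tumour by 2.69 to 3.95 times.

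Of the anti-apoptotic genes, MCL1 encodes a protein of rapid turnover. It had 209, 117 and 115 FPKM under IgG and 112, 126 and 136 FPKM under anti-ENG. IgG control 1 stood far above the other 5 tumours, and the remaining IgG tumours lay within the anti-ENG range. The log2 fold change of MCL1 was -0.18 (SE 0.24, 95% interval -0.74 to 0.37, limma adjusted p = 0.784), and it turned to 0.10 without IgG control 1. BCL2L1, the gene of BCL-XL, had 31.1, 27.1 and 26.2 FPKM under IgG and 28.5, 36.8 and 27.3 FPKM under anti-ENG. Its log2 fold change was 0.12 (SE 0.14, 95% interval -0.22 to 0.46, limma adjusted p = 0.768), and -0.01 without anti-ENG 2, its highest tumour. BCL2 had 0.678, 0.797 and 1.91 FPKM under IgG and 1.78, 1.15 and 1.03 FPKM under anti-ENG, with both ends of the range in the IgG arm. Its log2 fold change was 0.15 (SE 0.26, 95% interval -0.46 to 0.77, limma adjusted p = 0.831). It was 0.0058 without IgG control 1, 0.055 without IgG control 2, 0.017 without anti-ENG 1, -0.13 without both IgG control 1 and anti-ENG 1, 0.40 without IgG control 3 and 0.24 without anti-ENG 3.

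Set against each other per tumour, the sums showed where the RNA of the family lies. MCL1 made up 80.3 to 86.8% of the summed FPKM of the 3 anti-apoptotic genes in the IgG tumours and 76.9 to 82.8% in the anti-ENG tumours. BCL2 made up 0.282 to 1.34% of it over all tumours. BID and PMAIP1 together held 84.2 to 92.5% of the summed BH3-only RNA. BMF held 2.61, 3.85 and 3.94% of it in the IgG tumours and 1.52, 1.75 and 1.73% in the anti-ENG tumours. The choice of BMF for its lower level in these tumours favours this separation.

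The ratio of summed pro-apoptotic to summed anti-apoptotic FPKM was 0.918, 1.34 and 1.38 in the IgG tumours and 1.60, 1.35 and 1.26 in the anti-ENG tumours. The means were 1.21 ± 0.256 and 1.40 ± 0.175 (SD, n = 3 each), a difference within the spread between tumours. IgG control 1, the tumour with the most MCL1, had the lowest ratio, and anti-ENG 1, the tumour with the most PMAIP1, had the highest. The difference in mean ratio of 0.190 was 0.0422 without IgG control 1, 0.0917 without anti-ENG 1 and -0.0561 without both, with means of 1.36 under IgG and 1.31 under anti-ENG. With MCL1 left out of the sum the ratio lay between 5.82 and 7.50 in all tumours, with means of 6.97 and 6.89.

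With every gene weighted equally, the difference over all 6 tumours had the other sign. The mean log2(FPKM + 1) of the 7 pro-apoptotic genes minus that of the 3 anti-apoptotic genes was -0.15, 0.03 and -0.15 in the IgG tumours and -0.26, -0.23 and -0.15 in the anti-ENG tumours. The group means were -0.09 and -0.21, a difference of -0.12 with overlapping arms. Without BMF the difference was -0.02. As log2 of the summed FPKM ratio it was 0.23. Over all 6 tumours the sign of the balance thus differed between equal weights and weights by abundance. Without both IgG control 1 and anti-ENG 1 it was below 0 either way, at -0.13 with equal weights. That value includes BMF, whose choice for a lower level under anti-ENG favours this sign. With BMF also left out, the equal-weight values were 0.32 and 0.15 in IgG control 2 and 3. They were 0.17 and 0.28 in anti-ENG 2 and 3, so the arms overlapped.

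**Figure D3:**
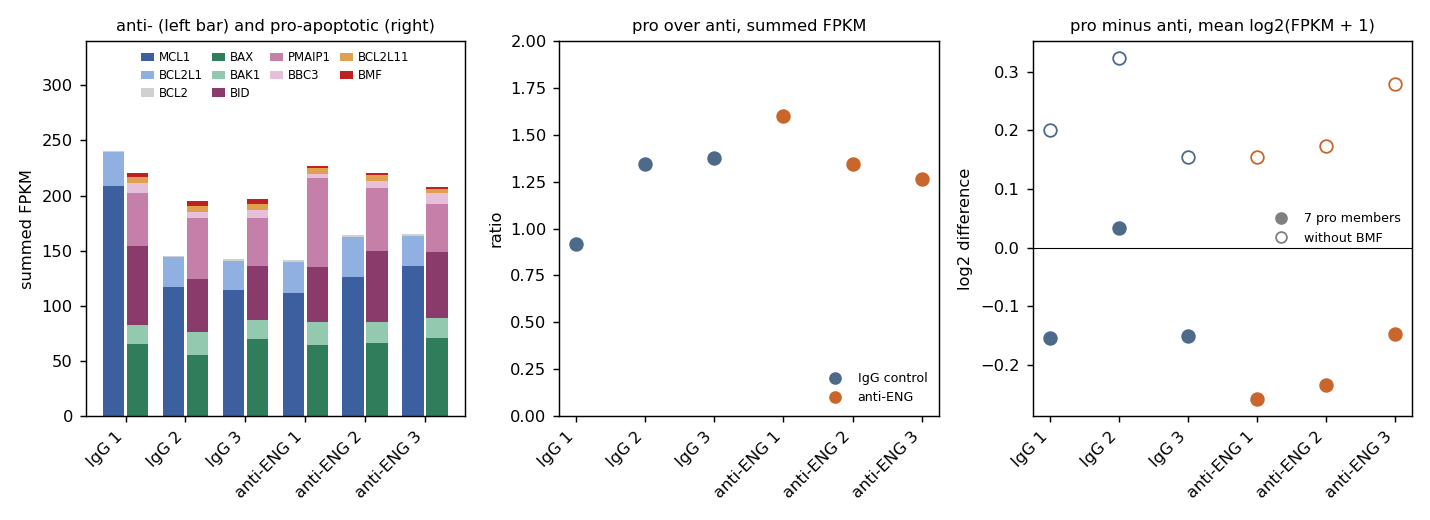
Left, summed FPKM per tumour of the 3 anti-apoptotic genes and the 7 pro-apoptotic genes as stacked bars; middle, their ratio; right, the difference of mean log2(FPKM + 1), with open points leaving out BMF. MCL1 fills most of each anti-apoptotic bar, the ratio runs from 0.918 in IgG control 1 to 1.60 in anti-ENG 1, and BMF is a thin slice of each pro-apoptotic bar.

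Other genes of the pathway were read from 9 lists of 68 genes, of which 60 were tested. In limma, 0 of the 60 passed the adjusted threshold. Their log2 fold changes were above 0 in 30 and below 0 in 30, and the arms did not overlap in 13, or 21.7%, beside 17.3% of all genes tested.

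The list of mitochondrial partners of BAX, BAK and BID had the highest list median, 0.27, with 5 of 6 genes above 0. The arms did not overlap, with the anti-ENG tumours higher, in 4 of 6, beside 10.6% of all genes tested. VDAC2, the channel protein that holds BAK in the membrane, had 80.0, 75.6 and 76.2 FPKM under IgG and 130, 86.9 and 100.3 FPKM under anti-ENG. The log2 fold change of VDAC2 was 0.43 (SE 0.16, limma adjusted p = 0.529). Those of VDAC1 and VDAC3 were 0.24 and 0.46, and that of the fission gene DNM1L was -0.23. The 4 genes were the 3 channel genes and MTCH2, a receptor for BID, named here after its values were seen, with a log2 fold change of 0.30. The count of genes apart was 4 with upper quartile rescaling, beside 8.15% of all genes, and 3 with quantile or cyclic loess normalization, beside 8.66 and 7.73%. It was 2 with tumours rescaled to the same sum, beside 3.46%. Without IgG control 1 and anti-ENG 1 the list median was 0.19, beside 0.0197 for all genes.

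The light chains and motors that hold BMF and BIM had differences of both signs. DYNLL1, the light chain of the dynein motor that holds BIM, had 239, 248 and 222 FPKM under IgG and 348, 330 and 261 FPKM under anti-ENG. Its arms did not overlap, at a log2 difference of 0.40 (SE 0.15, limma adjusted p = 0.529), but they did overlap under 3 of the 4 other scalings. DYNLL2, the light chain that holds BMF, had 20.6, 23.0 and 26.2 FPKM under IgG and 25.8, 23.1 and 26.4 FPKM under anti-ENG, and its log2 fold change was 0.11. DYNC1H1, the dynein heavy chain, had -0.14, and its arms did not overlap, with the anti-ENG tumours lower, in the deposited values and under each of the 4 other scalings. The list median was 0.05, with 3 of 5 genes above 0. The anti-ENG tumours were higher without overlap in 1 of 5 genes, beside 10.6% of all genes tested. They were lower without overlap in 1 of 5, beside 6.75%. Under the 4 other scalings 20 to 40% of the 5 genes had arms apart in either direction, beside 14.6 to 17.7% of all genes.

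Of the other anti-apoptotic family genes, 3 of 4 were tested and all 3 had log2 fold changes below 0, with arms that overlapped. BCL2A1, a target of NF-kappaB, had 17.5, 1.59 and 2.92 FPKM under IgG and 2.10, 0.434 and 7.48 FPKM under anti-ENG. IgG control 1, the tumour with the most MCL1 RNA, also had the most BCL2A1 RNA, and the log2 fold change of BCL2A1 was -0.77 (SE 0.84, limma adjusted p = 0.743). BCL2L2, the gene of BCL-W, and BCL2L12 had log2 fold changes of -0.12 and -0.13. The table also lists a read-through transcript of BCL2L2 with PABPN1, so the BCL2L2 level is uncertain where reads could be split between them.

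Of the other pro-apoptotic family genes, 5 of 9 were tested, 2 above 0 and 3 below, with a median of -0.05. BAD, a BH3-only gene whose product is held inactive by phosphorylation, had 46.3, 47.2 and 43.1 FPKM under IgG and 64.5, 59.6 and 56.6 FPKM under anti-ENG. The anti-ENG tumours all lay above the IgG tumours, at a log2 difference of 0.40 (SE 0.11, limma adjusted p = 0.529). Such a separation was seen in 1 of the 5 tested genes, beside 10.6% of all genes tested. The effector relative BOK had -0.27. The hypoxia-induced gene BNIP3 had 0.43, with 205 FPKM in anti-ENG 1 and 76.0 FPKM in anti-ENG 2, so its arms overlapped. HRK was listed at 0 in all tumours.

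**Figure D4:**
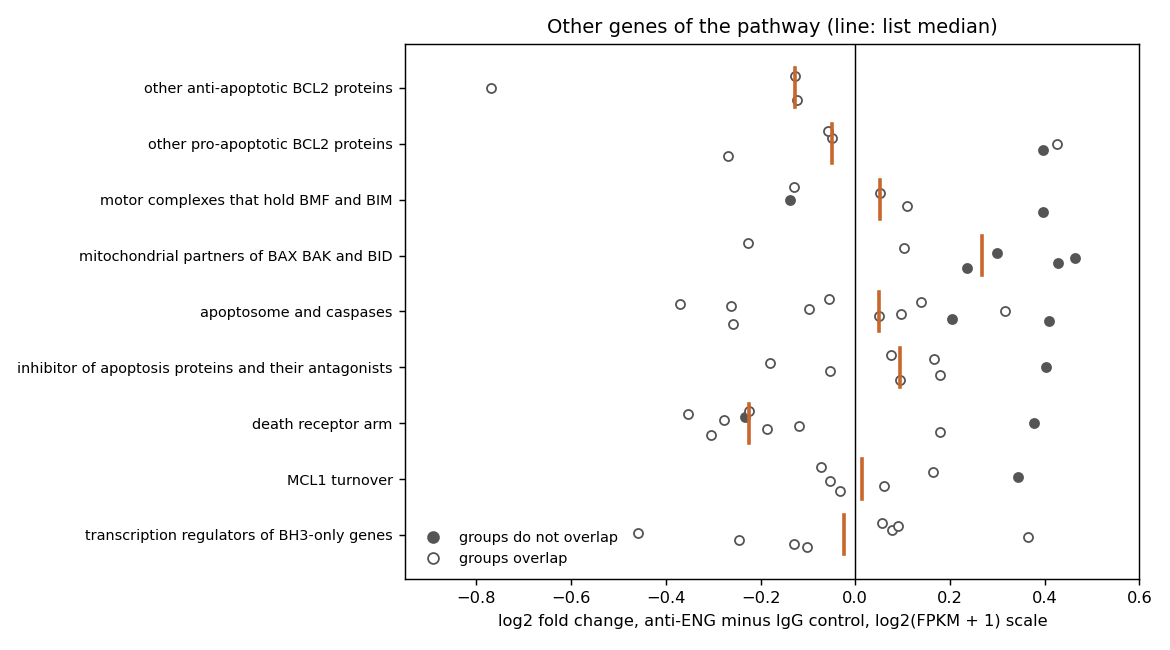
Log2 fold change on the log2(FPKM + 1) scale, anti-ENG minus IgG control, of the 60 tested genes in 9 lists; filled points are genes whose arms do not overlap and orange lines are list medians. The list of mitochondrial partners has the highest median, 0.27, and the death receptor list the lowest, -0.22.

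Downstream of the membrane, 6 of 11 apoptosome and caspase genes were above 0 (median 0.05). CYCS, the gene of cytochrome c, had 34.3, 39.0 and 37.7 FPKM under IgG and 64.6, 40.3 and 46.2 FPKM under anti-ENG, with a log2 fold change at 0.41 (SE 0.18, limma adjusted p = 0.529). The arms of CYCS did not overlap in the deposited values and overlapped under 3 of the 4 other scalings. APAF1, the scaffold of the apoptosome, had -0.26, the initiator CASP9 0.20 and CASP10 -0.37. The arms of CASP9 did not overlap either, and among the other scalings they overlapped only with tumours rescaled to the same sum. The anti-ENG tumours were thus higher without overlap in 2 of 11 genes, beside 10.6% of all genes tested. Of the inhibitor of apoptosis genes and their antagonists, 5 of 7 were above 0 (median 0.10). XIAP, BIRC2 and BIRC3 had 0.10, 0.18 and -0.05, and the ends of the list were BIRC6 at -0.18 and BIRC5, the gene of survivin, at 0.40. BIRC5 is also a gene of mitosis. Its arms did not overlap in the deposited values, with the anti-ENG tumours higher, and overlapped under each of the 4 other scalings. It was 1 of 7 genes so separated, beside 10.6% of all genes tested.

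In the death receptor arm, 7 of 9 genes were below 0 and the median was -0.22. FAS, the receptor of the FAS ligand, had 31.2, 18.8 and 21.2 FPKM under IgG and 13.0, 20.4 and 24.1 FPKM under anti-ENG, with IgG control 1 the highest and anti-ENG 1 the lowest, a log2 fold change of -0.30. The TRAIL receptor genes TNFRSF10A and TNFRSF10B had 0.18 and -0.19. The ends of the list were CFLAR, an inhibitor of caspase 8, at -0.35 and FADD, the adaptor that recruits it, at 0.38. FADD and RIPK1, a kinase at death receptors, were the genes whose arms did not overlap, and RIPK1, named after its values were seen, had -0.23. They were 22.2% of the 9 genes, beside 17.3% of all genes tested. Without IgG control 1 and anti-ENG 1 the list median was 0.02, with 5 of 9 genes above 0.

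The regulators of MCL1 turnover had a median of 0.01 with 3 of 6 genes above 0. HUWE1 and FBXW7, ubiquitin ligases for MCL1, had -0.03 and -0.05, and USP9X, which removes ubiquitin from it, had 0.06. The ends were USP13 at -0.07 and the mitochondrial ligase MARCH5 at 0.34. The arms of MARCH5 did not overlap, with the anti-ENG tumours higher, but they overlapped with upper quartile and same-sum scaling. This was 1 of 6 genes, beside 10.6% of all genes tested. Of the transcription regulators of BH3-only genes, 4 of 8 were above 0 (median -0.02). The forkhead genes FOXO1 and FOXO3 had -0.10 and -0.13. The ends were DDIT3, a factor of the unfolded protein response, at -0.46 and E2F1 at 0.36, and no gene of this list had arms that did not overlap.

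Among the 5 tested genes whose profile over the 6 tumours was most like that of BMF were SLC25A27, PPIEL, GABBR1 and AHSA2. Likeness was the root-mean-square difference between log2(FPKM + 1) values centred on each gene's mean over the 6 tumours, and it ran from 0.084 for SLC25A27 to 0.11 for AHSA2. SLC25A27, a mitochondrial carrier gene, had 7.11, 8.78 and 8.15 FPKM under IgG and 3.88, 4.54 and 3.65 FPKM under anti-ENG. As in BMF, IgG control 2 was the highest tumour, IgG control 1 the lowest of its arm, anti-ENG 2 the highest of its arm and anti-ENG 3 the lowest of all. GABBR1 had an anti-ENG mean of 0.606 times its IgG mean. These genes were picked for likeness to a gene that was itself picked for its difference, so their separation of the arms is no separate result.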

How the data were processed

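Per the submitters' processing notes, human build GRCh37 (hg19) was used with Cuffnorm, Cufflinks 2.2.1, TopHat2 2.0.10, Bowtie 1.0.0, FastQC 0.10.1 and SAMtools 0.1.1.9. The authors deposited FPKM values, 1 column per tumour. The scaling between libraries, the annotation, the use of strand and the treatment of mouse reads are not given in the sources used here. Per the labels' protocols, the polyA+ fraction was sequenced, and a pair of library kits and of instruments is named without saying which served which sample, so no within-batch value could be had and a difference of kit between arms cannot be told apart from treatment. Relative depth was the commonest ratio to IgG control 1 among genes at or below 0.05 FPKM, values taken to rest on few fragments. No pair of the 6 samples shared a value above 0 in any gene.

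In R 4.3.3, limma 3.58.1 compared the arms without covariates and with a trended variance prior. Its input was log2(FPKM + 1) of genes whose mean reached 1 FPKM. P-values are two-sided, adjusted by Benjamini-Hochberg over the 12586 genes, with a threshold of 0.05. An exact permutation test of 3 against 3 cannot give a two-sided p under 0.1, and none was run. The step was tested on simulated data. Intervals are at 95%. The named genes are all members, the first 3 tested genes of each list as written and the ends of its range, any list gene that passed, and the 5 nearest profiles to BMF; some genes that this rule names are not reported here. The members and lists were chosen with earlier results of these data known. Alternatives covered the pseudocount, the filter, scaling, variance model, sample weights, blocks and left-out tumours.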

Additional observations from a re-analysis of the deposited data

How the results depend on the processing

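Over 18 other settings no gene of the table and none of the members passed the limma adjusted threshold (0 genes called in each setting), and 1154 genes had an unadjusted p under 0.05 in the reported fit. Of 177 recomputed log2 fold changes of members, 153 kept their direction and 24 turned. BMF, BCL2L11 and PMAIP1 kept theirs in all settings run. For BMF, with 17 of the 153, the choice for a lower level in these tumours favours this. BMF and BCL2L11 ranged from -0.89 to -0.61 and from -0.37 to -0.17, and BMF and BCL2L11 could not be fitted at a minimum of 5 FPKM, nor could BCL2. The equal-weight balance of -0.12 became -0.21 with a pseudocount of 0.1, -0.024 without BMF and 0.23 as log2 of the summed FPKM ratio, and it ran from -0.16 to -0.061 with 1 tumour left out. With 1 tumour left out in turn, BBC3 ran from -0.48 to 0.19, BID from -0.039 to 0.24, BAX from -0.0082 to 0.16, BAK1 from -0.0096 to 0.13, BCL2L1 from -0.010 to 0.20, BCL2 from 0.0058 to 0.40, PMAIP1 from 0.040 to 0.49 and MCL1 from -0.33 to 0.10. BID was -0.021, -0.048 and -0.062 and BAX -0.0026, -0.031 and -0.035 with quantile, cyclic loess and same-sum scaling, where BAK1 was -0.056 with the last. With array weights BBC3 was 0.12, BAK1 -0.00022 and MCL1 0.0096. With tumours of 1 code number averaged BID was -0.021. With IgG control 1 and anti-ENG 1 both left out, BBC3 was 0.35, BAK1 -0.046, BCL2 -0.13 and MCL1 0.18. The arms then did not overlap in 5 of 10 members, beside 38.0% of all genes. These members were BCL2L11, BID, BCL2L1, MCL1 and BMF, and BMF was chosen for its lower level. This count was an alternative chosen after seeing the data. So was leaving tumours out of the ratio of summed FPKM, whose difference of 0.190 ran from 0.0422 to 0.272 with 1 tumour left out and was -0.0561 without both. The causes were not tested. The labels do not say that the title numbers pair the tumours. Deviations of same-numbered tumours correlated at -0.33, 0.19 and 0.037, and 1 of 6 tumours correlated best with its own number. Centring within arms of 3 tumours ties the deviations together, so these values cannot decide on pairing. With the replicate number as a block 0 genes were called. Depth in fragments is unknown, which limits what can be said of BMF and BCL2 at these levels.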
